A study of Mus musculus with 4 samples.

Results

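The pro-survival BCL2 genes Bcl2, Bcl2l1, Mcl1, Bcl2a1a, Bcl2a1b and Bcl2a1d were followed through mouse splenic B cells and CD4+ T cells. They were taken by symbol, and all 6 were found among the 32285 genes of the droplet libraries. The mice (C57BL/6NRj) carried Il2rbfl/fl and 1 copy of a B cell Cre, which deletes the interleukin-2 receptor beta chain in B cells, and the KO pools were set beside Cre control pools. The labels give the same genotype text for all samples, and only the hashtag text separates KO from Cre control, so the Il2rb alleles of the Cre controls are unknown here. Pools were taken 4 days after intraperitoneal sheep red blood cells or from unimmunized mice (day 0), which made the groups KO day 4, control day 4, KO day 0 and control day 0. Each group was 1 hashtag pool in each of 2 libraries, 1 of B cells and 1 of CD4+ T cells. How many mice made up a pool, and how old they were, is not stated in the labels. Having 1 pool a group, the design allows no test, and no p-values are given. Intervals are 95% intervals for counting error only, which leave out the spread between cells and between mice.

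BCL2 proteins of the pro-survival class sit on the outer mitochondrial membrane and bind the pore formers BAX and BAK and the BH3-only proteins that trigger them. BCL2 is known for keeping naive lymphocytes alive downstream of cytokines such as interleukin-7. MCL1 is a short-lived protein that most lymphocyte stages need, and BCL-XL (Bcl2l1) is known in activated lymphocytes and early precursors. A1 (Bcl2a1) is a target of NF-kB that antigen receptor and CD40 signals raise, and in the mouse it is encoded by several near-identical copies.

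On GRCm38 (GENCODE vM21) Bcl2 (ENSMUSG00000057329) lies on the minus strand of chr1:106538178-106714274, Bcl2l1 (ENSMUSG00000007659) on the minus strand of chr2:152780668-152831728 and Mcl1 (ENSMUSG00000038612) on the plus strand of chr3:95658788-95663176. The A1 copies share chromosome 9, with Bcl2a1d (ENSMUSG00000099974) on the minus strand of chr9:88723285-88731914, Bcl2a1a (ENSMUSG00000102037) on the plus strand of chr9:88956900-88962419 and Bcl2a1b (ENSMUSG00000089929) on the plus strand of chr9:89199209-89207827. The DNA just upstream of the A1 starts is shown because Bcl2a1b and Bcl2a1d were high and low in the same subsets, as described below. The sequences are RefSeq's, on GRCm38.p6, and end at the last base before any annotated transcript start. They cover chr9:89199023-89199164 (plus strand, 142 bases) for Bcl2a1b and chr9:88731915-88732050 (minus strand, 136 bases) for Bcl2a1d. Capitals mark the bases that differ from or are absent in the other copy.
Bcl2a1b: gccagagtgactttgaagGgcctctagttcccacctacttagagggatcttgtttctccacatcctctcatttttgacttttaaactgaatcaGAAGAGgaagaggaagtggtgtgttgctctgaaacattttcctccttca
Bcl2a1d: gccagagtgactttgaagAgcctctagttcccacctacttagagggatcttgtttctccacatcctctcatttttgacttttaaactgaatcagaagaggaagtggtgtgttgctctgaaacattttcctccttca
The copies were identical in 135 of 142 aligned columns (95.1%), and a run of 6 bases present in Bcl2a1b alone made up most of the 7 differing columns. The Bcl2a1a stretch (chr9:88956714-88956855, plus strand) equalled that of Bcl2a1b over 142 of 142 bases. Searched on both strands, the ETS motif GAGGAAGT and the AP-1 motif TGANTCA were found in the 300-base start windows of all 3 A1 copies, against 3.202% and 7.81% of 32851 such windows. The NF-kB motif, GGGA and CC with 4 bases of any kind between them, was found in the Bcl2a1b window alone (20.7% of all windows). The A1 windows do not cover the same stretch, since the ETS match lay at -148 from the start in Bcl2a1b and at -104 in Bcl2a1a and Bcl2a1d. Whether Bcl2a1a and Bcl2a1d lack the NF-kB motif is therefore not settled by these windows. The STAT motif TTCNNNGAA (8.30% of windows) was found in none of the members. None of the 4 motifs was found in the windows of Bcl2, Bcl2l1 or Mcl1.

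The copies are also alike in their transcripts. Aligned transcripts were 98.2% identical between Bcl2a1a and Bcl2a1b, 98.8% between Bcl2a1a and Bcl2a1d and 99.1% between Bcl2a1b and Bcl2a1d. Of 90-base windows in the first 300 bases, where 5′ tags fall, 65.9% were unique to Bcl2a1a, 86.3% to Bcl2a1b and 70.1% to Bcl2a1d, so the split of reads among copies is uncertain. Bcl2 overlaps the antisense gene D630008O14Rik, which had 91 UMIs in the B and 78 in the T lineage, and Bcl2a1d overlaps the antisense Gm10634, with 11 and 7 UMIs. On its own strand Bcl2 also overlaps Mir3473f and Gm37053, whose UMIs are not given here. Bcl2a1b overlaps Gm29094 on its own strand, which the matrices do not list.

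Levels are summed unique molecular identifiers (UMIs, counted molecules) per 1000000 UMIs of the same cells (CPM). B lineage cells numbered 1868, 1314, 986 and 1096 in KO day 4, control day 4, KO day 0 and control day 0, and T lineage cells 3236, 2002, 1282 and 985. Median depth was 4654.5 to 6102 UMIs per B cell and 4517 to 5574.5 per T cell, and both day 4 pools were deeper than both day 0 pools in each library. The 2 libraries shared 83 cell barcodes. Subsets were gated on marker genes, none of them a member, and follicular B cells and naive T cells were the largest gates. Although a kit for naive CD4+ T cells was named in the protocol, the T library also held gated regulatory, follicular helper, effector or memory and NK or innate-like cells, with Cd4 at 245 to 283 CPM and the Cd8 genes at 10.9 to 11.7 CPM. Il2rb gave 4 UMIs in KO day 4, 9 in control day 4 and 0 in KO day 0 and control day 0 B lineage cells, too few to check the genotype labels, and a 5′ tag need not lie in the deleted exons. Summed CPM of markers of other lineages was 1.18 to 2.30 for the 5 T cell markers in B lineage cells and 3.70 to 12.8 for the 4 B cell markers in T lineage cells, and at most 13.7 for myeloid and erythroid markers. The 5 dendritic cell markers summed to 154 to 225 CPM in B and 61.9 to 77.4 CPM in T lineage cells, of which Cst3, a protease inhibitor gene that many cell types express, made up 97.8% and 99.7%, and Clec9a was at 0.

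Bcl2, which binds BH3-only proteins to hold back mitochondrial pore formation, was higher at day 4 in naive T cells and over all T lineage cells in both genotypes. Over all B lineage cells its CPM was lower at day 4 in both genotypes. In naive T cells it stood at 279.8 CPM (95% interval 270.4 to 289.5) in KO day 4, 269 CPM (257 to 281) in control day 4, 162 CPM (151 to 175) in KO day 0 and 142 CPM (129.8 to 156) in control day 0. Both day 4 pools lay above both day 0 pools with no overlap of the intervals. Day 4 over day 0 was 1.72-fold in KO (1.59 to 1.87) and 1.89-fold in controls (1.71 to 2.09). After each cell was thinned to 1500 UMIs, 29.8% of naive cells in KO day 4 and 31.7% in control day 4 kept a Bcl2 UMI, against 17.2% in KO day 0 and 17.6% in control day 0. The unthinned shares were 64.1% in KO day 4, 65.1% in control day 4, 39.7% in KO day 0 and 37.7% in control day 0. For background, Cd79a, a B cell gene, had a UMI in 0.147% of thinned and 0.453% of unthinned T lineage cells, at the depths given above. In sums of cells, fewer cells with the transcript and less RNA per cell cannot be told apart. Cells with 2 or more thinned UMIs were also more frequent at day 4, which does not separate these readings. Cells with 2 UMIs made up 6.56% in KO day 4 and 5.05% in control day 4, against 2.69% in KO day 0 and 2.56% in control day 0.

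**Figure D1:**
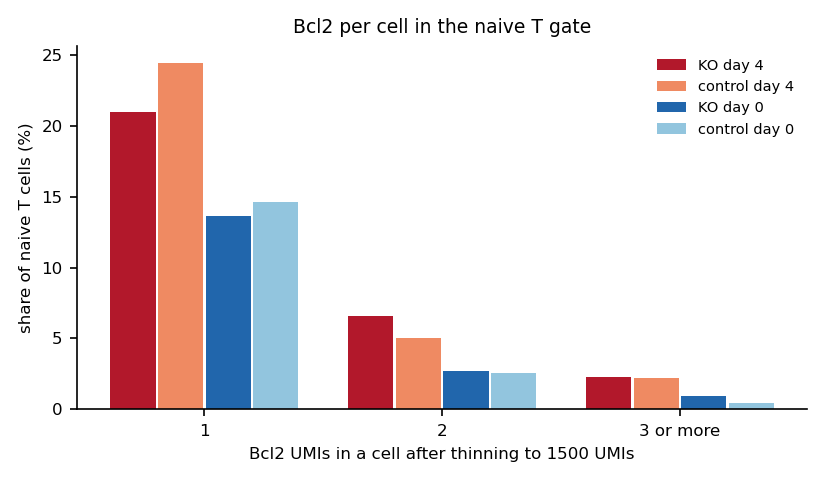
Share of naive T cells (%) with 1, 2 or 3 or more Bcl2 UMIs after thinning each cell to 1500 UMIs, in the 4 pools. The share with 1 UMI was 21.0% in KO day 4 and 24.5% in control day 4, against 13.7% in KO day 0 and 14.6% in control day 0, and the higher classes were larger at day 4 as well.

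Over all T lineage cells Bcl2 was at 211 CPM in KO day 4, 189.6 in control day 4, 147 in KO day 0 and 144 in control day 0. The day 4 over day 0 ratios were 1.43 in KO (1.33 to 1.54) and 1.31 in controls (1.21 to 1.43), smaller than in naive cells, and 1.61 and 1.47 without the 5% of cells with most UMIs. Regulatory T cells ran the other way in CPM. They held 144 CPM in KO day 4, 117 in control day 4, 188 in KO day 0 and 198 in control day 0, a ratio of 0.766 in KO (0.611 to 0.970) and 0.589 in controls (0.441 to 0.795). The thinned shares did not follow, with 19.9% of regulatory cells in KO day 4 against 15.3% in KO day 0, and 19.3% in control day 4 against 22.2% in control day 0. Without the 5% of cells with most UMIs, the KO ratio was 1.10 (0.842 to 1.47). No direction was read for regulatory cells in KO. The other T subsets with both days gave intervals that include 1. Day 4 over day 0 was 1.005 in KO (0.653 to 1.61) and 0.770 in controls (0.519 to 1.15) in NK or innate-like cells, and 0.940 in KO (0.629 to 1.44) and 0.670 in controls (0.419 to 1.11) in effector or memory cells.

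**Figure D2:**
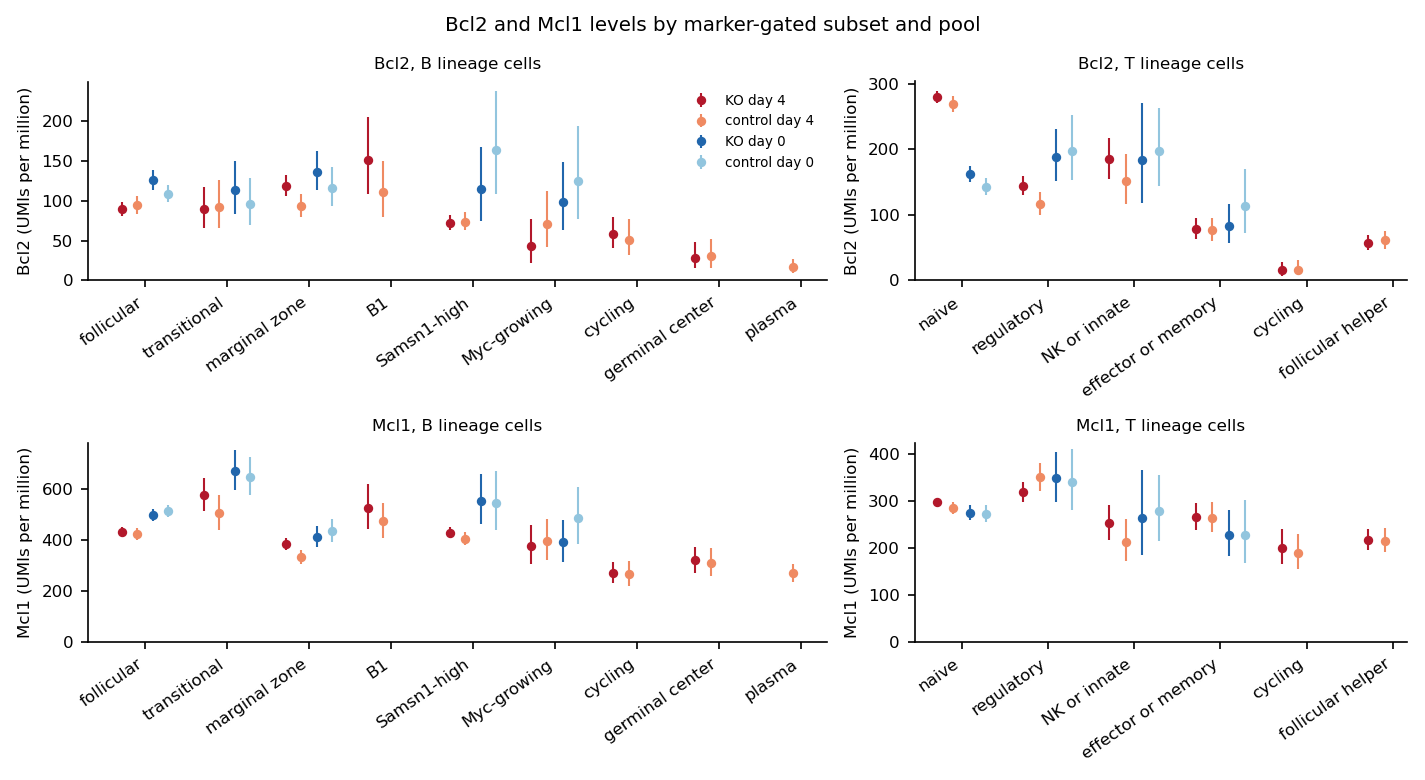
Bcl2 and Mcl1 levels (CPM) by gated subset and pool, B cells left and T cells right, with 95% Poisson intervals as bars. Among T subsets, Bcl2 was lowest in cycling cells (15.1 CPM in KO day 4, 16.6 in control day 4), and among B subsets in plasma and germinal center cells.

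Follicular helper and cycling T cells held little Bcl2. Follicular helper cells, which help B cells in germinal centers, had 56.9 CPM in KO day 4 and 61.1 in control day 4, 0.203 and 0.227 times the naive cells of the same pool. Cycling T cells had 15.1 CPM in KO day 4 and 16.6 in control day 4, on 9 UMIs each. At day 4 naive cells were highest in both genotypes, but at day 0 naive cells lay below NK or innate-like cells (184 CPM in KO, 197 in controls) and regulatory cells in both. By median over all pools, Bcl2 ran from naive (216 CPM, range 142 to 279.8) through NK or innate-like (184, 152 to 197) and regulatory (166, 117 to 198) to effector or memory cells (80.2, 76.3 to 114), follicular helper and cycling cells. The ranges of the first 3 overlapped, and each later step lay below the one before in every pool measured.

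In B cells Bcl2 was lower at day 4 by CPM. B lineage cells held 84.6 CPM (79.7 to 89.6) in KO day 4, 77.3 (72.0 to 82.9) in control day 4, 119.5 (111 to 129) in KO day 0 and 108 (100.1 to 117) in control day 0. The day 4 over day 0 ratio was 0.707 in KO (0.643 to 0.779) and 0.713 in controls (0.641 to 0.793), short of the 1.5-fold mark used here. Follicular B cells had 89.0 CPM in KO day 4, 94.2 in control day 4, 126 in KO day 0 and 108 in control day 0, with ratios of 0.709 in KO (0.616 to 0.815) and 0.869 in controls (0.744 to 1.01). In controls the thinned share of follicular cells with a UMI went the other way, 16.1% at day 4 against 14.01% at day 0, so no direction was read there. The mix of subsets moved with the day: cells gated as Samsn1-high activated, whose panel came from earlier results on these data, made up 27.0% of KO day 4 and 25.3% of control day 4 B lineage cells, against 3.14% of KO day 0 and 2.28% of control day 0 cells. Plasma, germinal center and cycling cells, low in Bcl2, were deep, with medians of 34997, 15031 and 22250 UMIs in control day 4. The part of the mix and of these deep cells in the B lineage values was not tested.

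Samsn1-high cells had 72.2 CPM of Bcl2 in KO day 4, 73.3 in control day 4, 114 in KO day 0 and 164 in control day 0. Their ratios, 0.630 in KO (0.420 to 0.984) and 0.448 in controls (0.297 to 0.700), rest on 31 KO and 25 control cells at day 0, and without the 1 cell richest in Bcl2 in each pool they were 0.768 and 0.556. After thinning, 11.5% of these cells in KO day 4 and 12.0% in control day 4 kept a Bcl2 UMI, against 12.9% in KO day 0 and 24.0% in control day 0. The intervals of these shares overlapped between days in both genotypes, so no direction was read. Germinal center B cells, in which Bcl2 is known to be silenced, held 28.4 CPM (15.5 to 47.7) in KO day 4 and 30.2 CPM (16.1 to 51.6) in control day 4, both 0.320 times the follicular cells of their pool. Cycling B cells had 57.9 CPM in KO day 4 and 51.0 in control day 4, and control day 4 plasma cells 16.4 CPM (9.17 to 27.0). At the upper end were B1 cells (151 CPM in KO day 4, 110.5 in control day 4) and marginal zone B cells (118, 92.99, 136 and 116 CPM in KO day 4, control day 4, KO day 0 and control day 0). Ranges overlapped between neighbours from B1 down through Myc-growing to cycling cells, and germinal center and then plasma cells followed without overlap.

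Mcl1, whose protein turns over fast and holds BAK in check, differed little between pools in T cells. T lineage cells held 286 CPM in KO day 4, 277 in control day 4, 278 in KO day 0 and 275 in control day 0. Day 4 over day 0 was 1.03 in KO (0.975 to 1.09) and 1.01 in controls (0.945 to 1.08). Both intervals include 1. Regulatory T cells, at 319, 351, 349 and 342 CPM in KO day 4, control day 4, KO day 0 and control day 0, stood above the naive cells of every pool, whose range was 273 to 297 CPM. Follicular helper cells had 218 CPM in KO day 4 and 216 in control day 4, and cycling T cells 200.3 in KO day 4 and 189.8 in control day 4, the bottom of the order.

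In B lineage cells Mcl1 was at 415 CPM (404 to 426) in KO day 4, 385 (373 to 397) in control day 4, 494 (476 to 513) in KO day 0 and 516 (497 to 534) in control day 0. Both day 4 pools were below both day 0 pools, with ratios of 0.840 in KO (0.803 to 0.880) and 0.746 in controls (0.712 to 0.783). Follicular cells followed with 0.869 in KO (0.813 to 0.928) and 0.825 in controls (0.768 to 0.886). Transitional B cells, recent arrivals from the bone marrow, held 576 CPM in KO day 4, 505 in control day 4, 673 in KO day 0 and 649 in control day 0, which was 1.19 to 1.35 times the follicular cells of the same pools. Marginal zone cells held 0.787 to 0.889 times the follicular level. Cycling B cells (272 CPM in KO day 4, 266 in control day 4) and control day 4 plasma cells (269.9 CPM) had the lowest levels, and germinal center cells had 321 CPM in KO day 4 and 311 in control day 4.

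Bcl2l1, the BCL-XL gene, was sparse. B lineage cells held 2.29 CPM in KO day 4, 1.97 in control day 4, 1.95 in KO day 0 and 2.74 in control day 0, on 11 to 31 UMIs, and follicular B cells stayed under the 20 UMIs needed, over both sums, in every comparison. T lineage cells held 9.86 CPM in KO day 4, 8.05 in control day 4, 5.45 in KO day 0 and 8.26 in control day 0. The KO pools differed 1.81-fold between days (1.253 to 2.68) and the control pools 0.975-fold (0.667 to 1.45), and the low KO day 0 pool (34 UMIs) stood apart from the other 3. NK or innate-like cells had the highest median (29.7 CPM, 16.6 to 33.4), ahead of regulatory cells (17.1 CPM, 9.15 to 18.0), with overlapping ranges. Naive cells, at 2.96 to 5.96 CPM, were below every other T subset.

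Bcl2a1b, an A1 copy induced by activation, was highest in follicular helper T cells and in small activated B gates. In follicular helper cells it stood at 245 CPM (222 to 270.0) in KO day 4 and 282 (254 to 313) in control day 4. Naive T cells of the same pools held 21.7 CPM in KO day 4 and 21.6 in control day 4, and follicular helper cells were thus 11.3-fold and 13.1-fold higher. Effector or memory cells (109, 134, 85.2 and 85.3 CPM in KO day 4, control day 4, KO day 0 and control day 0) and regulatory cells (102 CPM in KO day 4, 129.7 in control day 4, 70.1 in KO day 0 and 51.8 in control day 0) lay between. So did NK or innate-like cells, at 120, 133, 51.4 and 193 CPM in the same order of pools. Bcl2a1d, its near-identical neighbour, was at 106 CPM in KO day 4 and 111 in control day 4 follicular helper cells, against 3.94 and 7.67 CPM in the naive cells of those pools. Its highest T cell value was 149.9 CPM, in NK or innate-like cells of control day 0, on 35 UMIs. Bcl2, as given above, was lower in follicular helper than in naive cells.

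**Figure D3:**
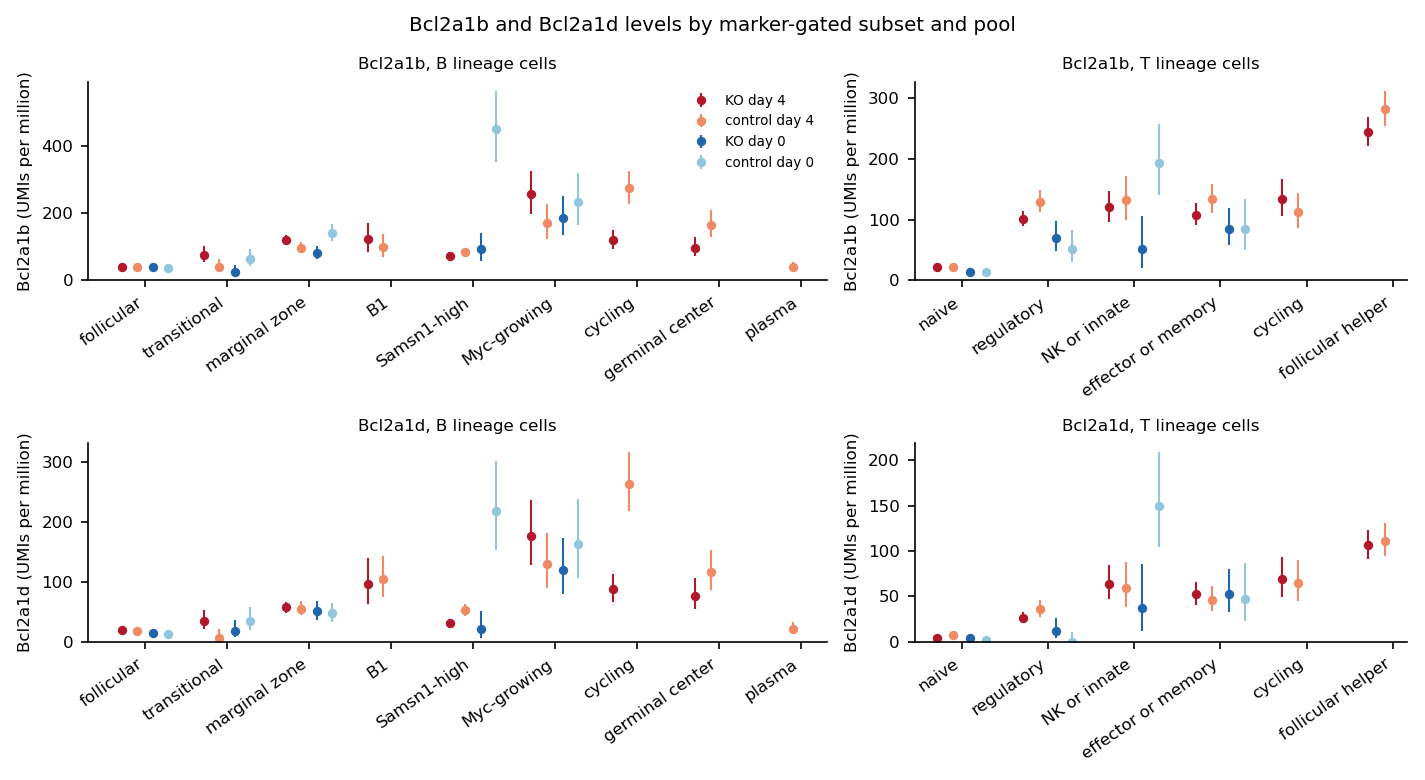
Bcl2a1b and Bcl2a1d levels (CPM) by gated subset and pool, B cells left and T cells right, with 95% Poisson intervals as bars. For Bcl2a1b, follicular helper cells were highest in T cells (245 CPM in KO day 4, 282 in control day 4). For Bcl2a1d, the highest T cell value was that of control day 0 NK or innate-like cells (149.9 CPM). Follicular B and naive T cells were among the lowest.

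In the B library follicular cells, the resting majority, held 40.8 CPM of Bcl2a1b in KO day 4, 39.9 in control day 4, 40.0 in KO day 0 and 35.9 in control day 0, with overlapping intervals. Myc-growing cells, gated on Myc and ribosome-building genes, held 255 CPM in KO day 4, 169 in control day 4, 185 in KO day 0 and 232 in control day 0, 4.24 to 6.45 times the follicular cells of their pools. Marginal zone B cells, which respond fast to blood-borne antigen, held 121, 97.1, 80.6 and 140.4 CPM in KO day 4, control day 4, KO day 0 and control day 0. B1 cells had 122 CPM in KO day 4 and 99.9 in control day 4. In the order of medians most neighbours overlapped, from Myc-growing (208 CPM) and cycling cells (196 CPM) to follicular (39.9 CPM) and plasma cells (39.3 CPM). For Bcl2a1d, cycling (176 CPM, 87.6 to 264) and Myc-growing cells (146 CPM, 120.4 to 177) had the highest medians. Myc-growing cells stood above B1 cells (101 CPM, 95.9 to 105.2) without overlap, while cycling cells spanned the B1 range, and follicular cells were lowest (16.7 CPM, 12.7 to 19.7).

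Cells rich in A1 were few. No A1 UMI was found in 73.7% of B lineage and 80.5% of T lineage cells, and in 17.7% of follicular helper cells. Cells with at least 10 UMIs of Bcl2a1b and Bcl2a1d together were 30 of 1868 B lineage cells in KO day 4 (1.61%), 31 of 1314 in control day 4 (2.36%), 5 of 986 in KO day 0 (0.507%) and 9 of 1096 in control day 0 (0.821%). These 75 of 5264 cells (1.42%) held 38.7% of the A1 UMIs of the lineage, and the rest lay in cells with fewer. They were also deep, with a median of 14555 UMIs against 5434.5 over all B lineage cells, and the part of depth was not tested. By gate the highest shares were 13 of 58 cycling cells (22.4%), 12 of 111 Myc-growing cells (10.8%) and 5 of 62 germinal center cells (8.06%). The larger marginal zone and Samsn1-high gates gave 20 of 638 (3.13%) and 13 of 893 cells (1.46%), and follicular cells 4 of 2894 (0.138%). In the T lineage they were 32 of 3236 cells in KO day 4 (0.989%), 25 of 2002 in control day 4 (1.249%), 2 of 1282 in KO day 0 (0.156%) and 3 of 985 in control day 0 (0.305%). These 62 cells held 24.3% of the A1 UMIs of the T lineage. Follicular helper cells made up 32 of them, which was 12.0% of all 266 follicular helper cells, and naive cells 3 of 4864 (0.0617%).

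**Figure D4:**
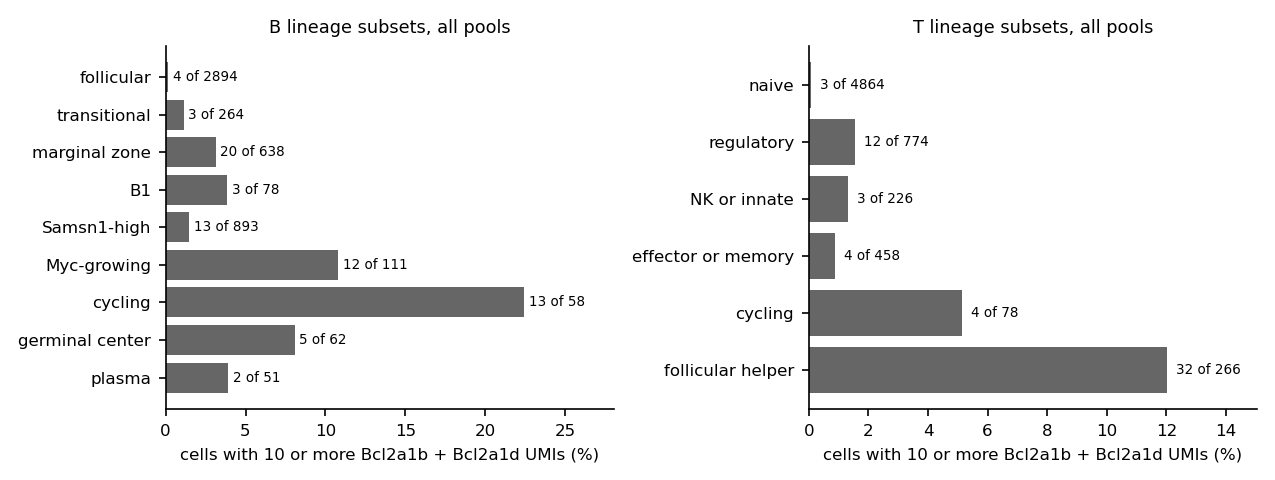
Share (%) of the cells of each gated subset, all pools together, with at least 10 UMIs of Bcl2a1b and Bcl2a1d. Cycling B cells (22.4%) and follicular helper T cells (12.0%) led their libraries, and follicular B and naive T cells were near 0.

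Both copies were found in the same cells. A Bcl2a1d UMI was present in 5.90% of B lineage cells with no Bcl2a1b UMI, 18.5% of those with 1, 41.1% of those with 2 to 4, 79.1% of those with 5 to 9 and 36 of 37 cells (97.3%) with 10 or more. In the T lineage the shares ran from 3.17% with none through 40.4% with 2 to 4 to 25 of 29 cells (86.2%) with 10 or more. Median depth went up along the same classes, from 5097.5 to 15967 UMIs in B and from 5003 to 19496 UMIs in T cells. Its part was not tested, and reads of one copy assigned to the other would also place both in 1 cell. Bcl2a1d supplied 35.05% of the A1 UMIs in the B lineage and 26.3% in the T lineage, from 45.6% in B1 and 44.9% in cycling B cells to 19.4% in naive T cells.

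By CPM, day 4 pools had more A1 than day 0 pools in both lineages. In T lineage cells Bcl2a1b was at 68.5 CPM in KO day 4, 82.9 in control day 4, 31.9 in KO day 0 and 32.8 in control day 0. The ratios were 2.15 in KO (1.85 to 2.505) and 2.53 in controls (2.13 to 3.01). Bcl2a1d was at 23.7 CPM in KO day 4, 30.7 in control day 4, 10.6 in KO day 0 and 13.3 in control day 0, with ratios of 2.24 in KO (1.73 to 2.94) and 2.31 in controls (1.76 to 3.08). Day 4 and day 0 pools did not overlap for either copy. Without the 5% of cells with most UMIs the ratios were smaller, 1.73 and 2.06 for Bcl2a1b and 1.47 and 1.69 for Bcl2a1d, in KO and controls. The 8 cycling markers moved with the day too, summing in T lineage cells to 376 CPM in KO day 4, 373 in control day 4, 144 in KO day 0 and 41.7 in control day 0, and their part in the result was not tested. Within naive cells Bcl2a1b held 21.7 CPM in KO day 4, 21.6 in control day 4, 14.3 in KO day 0 and 13.4 in control day 0, ratios of 1.51 in KO (1.14 to 2.02) and 1.61 in controls (1.15 to 2.31). Naive Bcl2a1d was at 3.94 CPM in KO day 4, 7.67 in control day 4, 4.10 in KO day 0 and 1.78 in control day 0, on 6 to 54 UMIs.

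In regulatory T cells the control pools differed 2.503-fold in Bcl2a1b (1.52 to 4.38) and the KO pools 1.45-fold (1.02 to 2.12). Bcl2a1d was found in 55 UMIs in control day 4 regulatory cells and 0 in the 63 control day 0 cells, at least 3.90-fold higher against a floor of 3 counts in the day 0 pool. KO day 4 regulatory cells held 25.9 CPM of Bcl2a1d, against 12.0 CPM in KO day 0.

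In B lineage cells Bcl2a1d was at 40.1 CPM in KO day 4, 53.2 in control day 4, 25.8 in KO day 0 and 28.9 in control day 0. Its ratios were 1.55 in KO (1.29 to 1.88) and 1.84 in controls (1.54 to 2.20). Bcl2a1b was at 77.4 CPM in KO day 4, 80.1 in control day 4, 56.9 in KO day 0 and 69.7 in control day 0, with ratios of 1.36 in KO (1.20 to 1.54) and 1.15 in controls (1.02 to 1.30). The thinned shares with a Bcl2a1b UMI were 7.02%, 6.41%, 6.00% and 6.46% in the same order of pools. For Bcl2a1d they were 3.54%, 4.20%, 2.95% and 2.95%. Day 4 and day 0 intervals of these shares overlapped for both copies, and no direction was read for Bcl2a1b over the B lineage. Follicular B cells alone showed less, 1.28 in KO (0.898 to 1.85) and 1.42 in controls (0.943 to 2.14) for Bcl2a1d, and 1.02 (0.811 to 1.29) and 1.11 (0.862 to 1.43) for Bcl2a1b. All 4 of these intervals include 1. The cycling markers summed in B lineage cells to 351 CPM in KO day 4, 413 in control day 4, 173 in KO day 0 and 53.9 in control day 0, and their part was not tested. Marginal zone, transitional and Samsn1-high cells gave A1 ratios on both sides of 1, depending on genotype or day, and several of them rested on 1 cell. In control day 0 Samsn1-high cells, 1 of 25 cells held 51.4% of the Bcl2a1b UMIs, and in KO day 4 transitional cells 1 of 71 cells held 57.1%.

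Counted together, members past 1.5-fold with an interval that excluded 1 were set beside all genes whose 2 sums held at least 20 UMIs between them. Bcl2a1a never reached that count in lineage cells, which left 5 members. Between day 4 and day 0, 3 of 5 were called higher in KO T lineage cells (Bcl2l1, Bcl2a1b and Bcl2a1d), where 4.93% of all genes were, and 2 of 5 in control T lineage cells (both A1 copies), where 7.31% were. None was called lower, against 1.68% of all genes in KO and 2.82% in controls. In naive T cells 3 of 5 were called higher in KO (Bcl2, Bcl2l1, Bcl2a1b; 1.91% of all genes) and 3 of 5 in controls (Bcl2 and both A1 copies; 2.2% of all genes), and none lower (1.62% of all genes in KO, 3.13% in controls). In B lineage cells 1 of 5, Bcl2a1d, was called higher in KO (3.13% of all genes) and in controls (5.2%), and none lower (3.12% in KO, 5.69% in controls). In follicular B cells 0 of 4 were called higher (1.57% of all genes in KO, 1.45% in controls) or lower (2.44% and 3.9%).

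**Figure D5:**
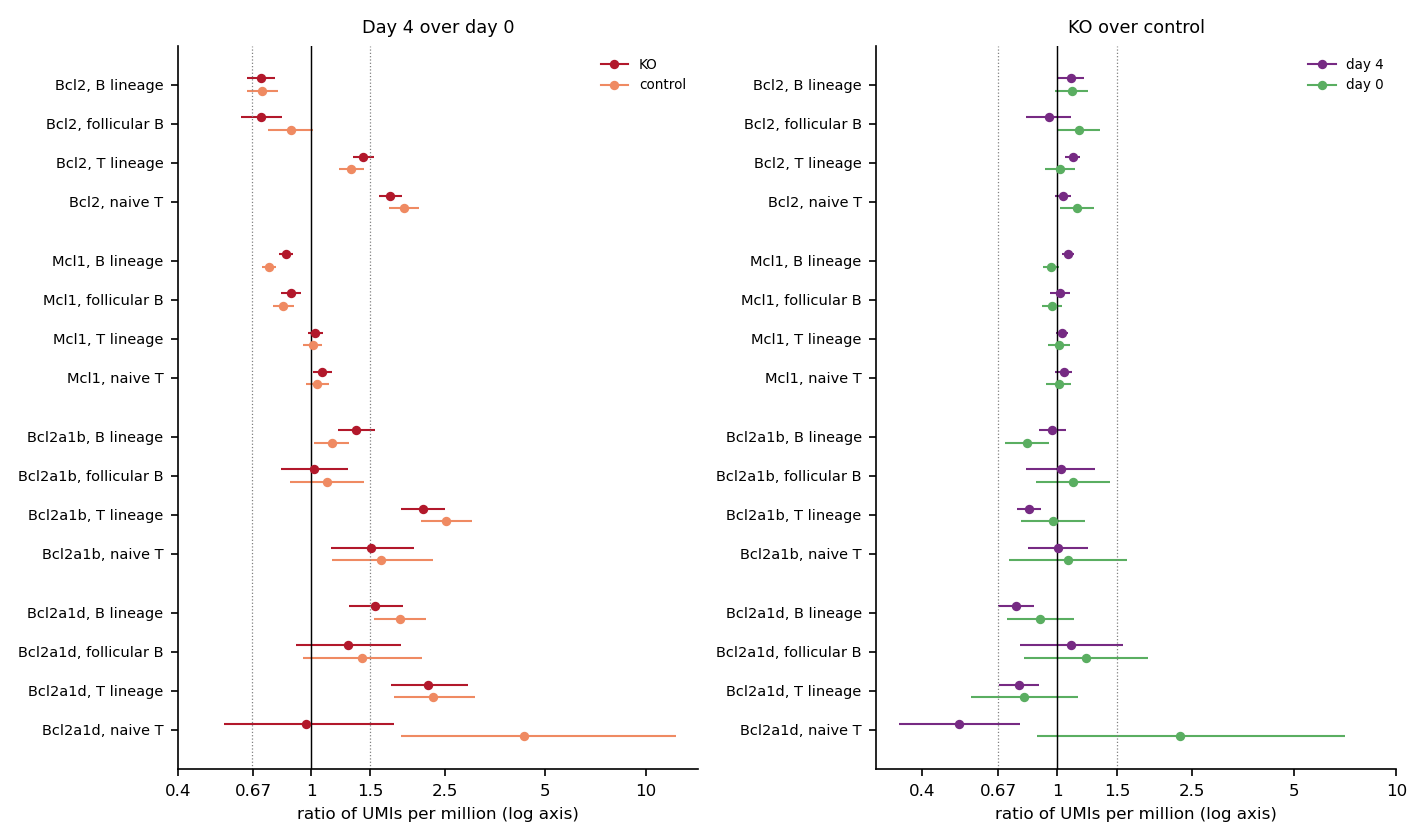
Ratios of CPM (log axis) for Bcl2, Mcl1, Bcl2a1b and Bcl2a1d in B lineage, follicular B, T lineage and naive T cells, day 4 over day 0 in each genotype and KO over control on each day, with 95% intervals for counting error; dotted lines mark 1.5-fold. Bcl2 lay above 1 in T and below 1 in B lineage cells between days, and KO over control ratios lay within the 1.5-fold lines except for Bcl2a1d in naive T cells.

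Between KO and control pools most ratios of the members lay within 1.5-fold. In B lineage cells, where the deletion is directed, 0 of 5 members were called on day 4, where 1.56% of all genes were called higher and 2.2% lower, or on day 0, where 2.13% and 1.85% were. Bcl2 was 1.09 times the control at day 4 (0.999 to 1.20) and 1.10 times at day 0 (0.988 to 1.23), and Mcl1 1.08 (1.04 to 1.12) and 0.958 (0.910 to 1.01). Bcl2a1d was at 0.755 times the control at day 4 (0.669 to 0.852) and 0.892 at day 0 (0.710 to 1.12). Within follicular B cells 0 of 4 counted members were called on day 4 (1.91% of all genes higher, 1.18% lower) or day 0 (1.67% and 1.73%), and the day 4 ratio of Bcl2a1d was 1.10 (0.776 to 1.56). Activated gates lay on both sides of 1. Samsn1-high cells held 31.5 CPM in KO day 4 and 52.6 CPM in control day 4, a ratio of 0.599 (0.458 to 0.781), and 0.716 without the richest cell of each pool. Cycling B cells held 87.6 CPM in KO day 4 and 264 CPM in control day 4, a ratio of 0.332 (0.237 to 0.460), and 0.427 (0.285 to 0.632) without those cells. Bcl2a1b in the same cells was at 119 CPM in KO day 4 and 273 CPM in control day 4, a ratio of 0.436 (0.323 to 0.585). These are 29 KO and 20 control cells, and 1 control cell held 40.3% of the control Bcl2a1d UMIs, a spread between cells that the interval leaves out. Under a mitochondrial limit of 5%, stricter gates, thinned gates or the removal of deep cells, under 20 control cells were left and no ratio was taken. Germinal center cells, 24 in KO day 4 and 25 in control day 4, had ratios of 0.592 for Bcl2a1b (0.401 to 0.865) and 0.665 for Bcl2a1d (0.424 to 1.03). Myc-growing cells, 30 in each, went the other way, at 1.51 for Bcl2a1b (1.01 to 2.27), 1.20 without the 5% of cells with most UMIs, and at 1.36 for Bcl2a1d (0.849 to 2.20).

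In T lineage cells, where Il2rb stood at 103.5 CPM in KO day 4 and 111 CPM in control day 4, 0 of 5 members were called on day 4 (1.08% of all genes higher, 1.82% lower) or day 0 (1.95% and 1.54%). Bcl2 was 1.11 times the control at day 4 (1.06 to 1.17) and 1.02 at day 0 (0.923 to 1.13), and within naive cells 1.04 (0.983 to 1.10) and 1.14 (1.02 to 1.29). Bcl2a1b was at 0.827 (0.763 to 0.897) and Bcl2a1d at 0.772 (0.674 to 0.884) at day 4. Within follicular helper cells the day 4 ratios were 0.869 (0.753 to 1.002) and 0.953 (0.762 to 1.19), and these cells made up 4.30% of KO day 4 and 5.34% of control day 4 T lineage cells. With gates read on thinned cells the follicular helper ratio of Bcl2a1b was 1.39. In naive cells 1 of 5 members, Bcl2a1d, was called lower at day 4 (1.16% of all genes, with 1.15% higher), and 0 of 5 at day 0 (1.05% higher, 1.75% lower). Its day 4 ratio was 0.515 (0.341 to 0.775) on 47 KO and 54 control UMIs, and it was not called with 1 marker more in each gate, where the ratio was 0.827, or with gates read on thinned cells, where it was 0.755 (0.426 to 1.36). The difference between the B and T lineage ratios was not tested.

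Bcl2a1a, a further A1 copy, had few UMIs in lymphocytes. It had 5 UMIs in B lineage cells, 0 of them in KO day 4 and 4 in control day 4, and 0 in KO day 0 and 1 in control day 0, and 10 in T lineage cells. The B lineage level was 0.142 CPM (0.0461 to 0.332). Of the B library's Bcl2a1a UMIs, 43 (58.1%) fell in the 107 cells gated as myeloid, at 30.3 CPM (22.0 to 40.9), a cell class where Bcl2a1b stood at 116 CPM and Bcl2a1d at 93.1 CPM.

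The genes most like each member were named by Pearson correlation of log2(CPM + 1) over subset and pool sums, 27 sums and 5904 genes in the B library and 20 sums and 5780 genes in the T library. These sums share a library, their depths and their cycling cells, and the correlations are descriptions. In B cells Bcl2a1b was most like Bcl2a1d (r = 0.923), then Dis3 (0.789) and Nop2 (0.780), and Bcl2a1d was next like Nop2 (0.824) and Naa20 (0.797). Bcl2 was most like Phf21a (0.897), Nrros (0.896) and Lgals8 (0.895), and Mcl1 like Clec2d (0.879), Dgkd (0.875) and Ypel3 (0.862). In T cells Bcl2 was most like the ribosomal protein genes Rpl38 (0.956) and Rpl27 (0.913) and the GTPase gene Gimap6 (0.913), and Mcl1 like Igf2r (0.876), Ncoa3 (0.859) and Bmyc (0.852). Bcl2a1b was most like Eea1 (0.932), Acot7 (0.931) and Etfb (0.928), and Bcl2a1d like Tmem160 (0.930), Tmed9 (0.918) and Mrpl43 (0.914).

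Few of the opposing, pro-apoptotic genes of the family were called. In B lineage cells 1 of 8 counted genes was called lower at day 4 in each genotype (3.12% of all genes in KO, 5.69% in controls) and none higher. That gene was Bmf, a BH3-only protein, at 2.59 CPM in KO day 4 against 8.49 CPM in KO day 0 (ratio 0.305, 0.191 to 0.481) and 3.35 CPM in control day 4 against 10.3 CPM in control day 0 (0.326, 0.207 to 0.504). The median log2 ratio of the list was -0.12 in KO and 0.03 in controls, beside -0.03 and -0.10 over all genes. In T lineage cells 0 of 9 were called in KO, and 2 of 8 higher and 1 lower in controls (7.31% and 2.82% of all genes), with medians of 0.16 and 0.29 on the log2 scale beside 0.05 and 0.01 over all genes. In naive T cells 0 of 6 counted were called in KO (1.91% of all genes higher, 1.62% lower), and 1 higher and 1 lower of 6 in controls (2.2% and 3.13%). In controls Bid was at 1.77 times the day 0 level (1.02 to 3.23), on 17 day 0 UMIs. Bbc3, which encodes PUMA, was at 0.616 times the day 0 level (0.432 to 0.880).

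Of 16 counted genes of the NF-kB pathway, which A1 is known to follow, 1 was called higher in KO B lineage cells at day 4 (3.13% of all genes), and 1 higher and 1 lower in controls (5.2% and 5.69% of all genes), with log2 medians of -0.07 and -0.18 beside -0.03 and -0.10 over all genes. Cd83 was at 436 CPM in KO day 4 against 141 CPM in KO day 0 (3.10-fold) and 382 CPM in control day 4 against 149.7 CPM in control day 0 (2.55-fold), and it is also a marker of the Samsn1-high gate. In T lineage cells 1 was called higher in KO (Irf4) and 2 in controls (Cd83 and Irf4), where 4.93% of all genes were in KO and 7.31% in controls. Cd83 was at 13.2 CPM in control day 4 against 2.82 CPM in control day 0 (4.66-fold) on 13 day 0 UMIs. Irf4, a factor of activated lymphocytes, was at 24.8 CPM in KO day 4 against 6.73 CPM in KO day 0 (3.68-fold) and 29.8 CPM in control day 4 against 7.17 CPM in control day 0 (4.16-fold). Of 8 counted receptors of survival cytokines, 1 was called higher and 1 lower in KO and in control T lineage cells. Over all genes 4.93% were called higher and 1.68% lower in KO, and 7.31% and 2.82% in controls (log2 medians of the receptors 0.18 and 0.08, beside 0.05 and 0.01 over all genes). Il7r, the receptor of interleukin-7, was at 312 CPM in KO day 4 against 473 CPM in KO day 0 T lineage cells (0.660), and 277 CPM in control day 4 against 502 CPM in control day 0 (0.551). Il4ra was higher in naive cells, at 187 CPM in KO day 4 against 75.1 CPM in KO day 0 (2.49-fold) and 168 CPM in control day 4 against 83.2 CPM in control day 0 (2.02-fold).

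STAT5 target genes, which signals through the interleukin-2 receptor beta chain are known to induce, were called higher at day 4 in 2 of 6 counted in KO and 3 of 7 in control B lineage cells, with none lower, where 3.13% of all genes were called higher in KO and 5.2% in controls (log2 medians 0.34 and 0.49, beside -0.03 and -0.10 over all genes). Socs3, a feedback inhibitor, was at 18.98 CPM in KO day 4 against 3.54 CPM in KO day 0 (5.37-fold) and 19.1 CPM in control day 4 against 4.11 CPM in control day 0 (4.65-fold). Between genotypes at day 4, 1 of 8 counted targets was called lower in KO B lineage cells (2.2% of all genes) and none higher (1.56%). The log2 median of the list was 0.01, beside 0.04 over all genes. The called gene was Socs2, at 0.739 CPM in KO and 3.25 CPM in control cells, a ratio of 0.227 (0.100 to 0.472) on 10 and 33 UMIs. Gates differed in direction at day 4. Of 4 counted targets in germinal center cells, Pim2 (3.72), Myc (3.41) and Socs1 (3.35) were called higher in KO, on 4, 10 and 6 control UMIs. Pim2 was also called higher in transitional cells (2.59), but Myc lower in cycling (0.539) and Pim1 lower in B1 cells (0.601). In follicular B cells 0 of 6 were called (1.91% of all genes higher, 1.18% lower). In naive T cells 3 of 7 counted were called higher in KO (1.91% of all genes) and 2 of 7 in controls (2.2% of all genes), among them Socs1 at 96.9 CPM in KO day 4 against 46.0 CPM in KO day 0 (2.11-fold) and 90.4 CPM in control day 4 against 38.9 CPM in control day 0 (2.32-fold).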

How the data were processed

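The authors deposited UMI count matrices of 32285 genes and 4 hashtags per cell, made from 5′ libraries with Cell Ranger 5.0.0 on mm10, per the submitters' processing notes. The labels state neither read length nor annotation release. Of the deposited barcodes, 6218 of 6339 (B) and 9196 of 9307 (T) passed limits of 200 genes (minimum) and 10% mitochondrial UMIs (maximum). HTODemux (Seurat 5.3.0, R 4.3.3, positive quantile 0.99) assigned 5477 B and 7636 T barcodes to 1 hashtag, and barcodes with several hashtags (568 and 1007) or none (173 and 553) were dropped, with no other doublet step. B lineage cells had at least 2 of 4 B cell markers and T lineage cells at least 2 of 5 T cell markers, without those of other lineages.

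Cells were then gated by the number of markers detected, the first match counting. The order in B cells was plasma (4 of 7), germinal center (3 of 9), cycling (3 of 8), B1 (2 of 6), transitional (2 of 4), marginal zone (4 of 8), Samsn1-high (3 of 6), Myc-growing (4 of 5) and follicular (2 of 4). In T cells it was NK or innate-like (2 of 7), regulatory (3 of 4, or any Foxp3 UMI), follicular helper (3 of 7), cycling (3 of 8), effector or memory (3 of 8) and naive (4 of 7). Thresholds were set after marker detection rates were seen, and gates rest on detection, so deeper cells pass more easily.

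Sums of at least 20 cells gave CPM with exact Poisson intervals, and ratios had conditional exact binomial intervals (scipy 1.17.1, numpy 2.4.6, pandas 2.3.3). A ratio was called past 1.5-fold with an interval excluding 1 and at least 20 UMIs in both sums together. Interval code was tested on simulated data. No p-values were computed, since each group was 1 pool in a library. All members are named, with up to 3 highest and 3 lowest called genes of each other list, and the 3 genes most like each member among those of at least 20 CPM. The members, lists and markers were chosen with earlier results of these data known. Alternatives covered hashtag assignment, mitochondrial limit, lineage gate, scaling, deep cells, the richest cell, fold, minimum count and gates.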

Additional observations from a re-analysis of the deposited data

Results flagged for a closer look

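By CPM, Bcl2 differed between days in opposite directions in the 2 lineages. In the T lineage day 4 over day 0 was 1.43 in KO and 1.31 in controls, and in the B lineage 0.707 in KO and 0.713 in controls, with intervals excluding 1. Within T cells, regulatory cells had 0.766 in KO and 0.589 in controls, while naive cells had 1.72 in KO and 1.89 in controls. None of these differences was tested, and the KO regulatory value was 1.10 without the 5% of cells with most UMIs. In control B lineage cells the thinned shares with a Bcl2 UMI, 12.5% at day 4 and 13.9% at day 0, had overlapping intervals.

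For Bcl2a1b in transitional B cells, KO over control was 1.89 at day 4 and 0.395 at day 0. Without the richest cell of each pool these were 1.15 (0.524 to 2.62) and 0.468 (0.188 to 1.08), and the difference was not tested. For the same gene in marginal zone B cells, KO over control was 1.24 on day 4 and 0.574 on day 0, and day 4 over day 0 was 1.5 in KO and 0.692 in controls. The KO over control ratios were 1.29 and 0.679 without the richest cells, and the day 4 one was 0.817 with gates read on thinned cells. These differences were not tested.

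Bcl2a1d in control T cells had a day 4 over day 0 ratio of 0.395 in NK or innate-like cells and 4.3 in naive cells. The naive day 0 sum held 6 UMIs, and the difference was not tested.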

How the results depend on the processing

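No paired analysis was possible because each group was 1 pool. Of 1471 alternative ratios of the members, 1425 stayed within the reported interval and 44 left it. Crossings of 1 from a reported interval that includes 1 were not counted apart. Bcl2a1b in follicular helper cells, KO over control at day 4, was such a case among the 44, at 1.39 with gates read on thinned cells. The remaining 2 changed side from a reported interval that excluded 1. These were Bcl2a1b in marginal zone cells, KO over control at day 4, at 0.817 (0.438 to 1.55) with gates read on thinned cells, and Bcl2 in regulatory T cells, day 4 over day 0 in KO, at 1.10 (0.842 to 1.47) without the 5% of cells with most UMIs. In the first, gates are read from fewer UMIs per cell, and all UMIs of the cells that pass are summed. The second holds fewer cells, and the cause was not tested in either. Bcl2 in naive T cells kept its direction and call under each alternative run, at 1.61 to 1.74 in KO and 1.77 to 1.99 in controls.

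Counts of called members mostly differed by 1. With all cells of 1 hashtag they were 1 for KO over control at day 4 (0 in lineage cells alone) and 2 for day 4 over day 0 in controls (1 in lineage cells alone) in the B library. A lower fold mark, 25% above 1, gave 1 for KO over control at day 4 in the B and in the T lineage, 3 for day 4 over day 0 in B lineage cells of KO and of controls, and 1 in follicular B cells of KO. In follicular B cells day 4 over day 0, 1 member was called in KO without the deepest cells, and 1 in controls with median-of-ratios scaling, with thinned gates or with 1 marker more. A mitochondrial limit of 5% called 1 member for KO over control in T lineage cells at day 0. In naive T cells 0 members were called for KO over control at day 4 with thinned gates or with 1 marker more. The gates with 1 marker more were an alternative chosen after seeing the data.

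Over all genes, KO over control calls with all cells of 1 hashtag numbered 912 at day 4 and 669 at day 0 in the B library (436 and 426 in lineage cells) and 550 at day 4 in the T library (352). Day 4 over day 0 in KO T lineage cells gave 465 without the deepest cells (779 with them). A minimum of 100 UMIs, which tests fewer genes, gave for KO over control at day 4, KO over control at day 0, day 4 over day 0 in KO and day 4 over day 0 in controls 237, 207, 450 and 778 calls in the B lineage, 134, 144, 189 and 238 in follicular B, 157, 134, 497 and 714 in the T lineage and 111, 98, 205 and 294 in naive T cells. Depth limits Bcl2l1, Bcl2a1a and the smallest gates.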
